A study of Mus musculus with 6 samples.

Results

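The miR-30 family is a set of microRNAs made from closely related hairpins, and 9 of its mature strands were examined in irradiated and control mouse thymus. They were chosen by name in the deposited table: mmu-miR-30a-5p, mmu-miR-30b-5p, mmu-miR-30c-5p, mmu-miR-30d-5p, mmu-miR-30e-5p, mmu-miR-30a-3p, mmu-miR-30c-2-3p, mmu-miR-30d-3p and mmu-miR-30e-3p, written without the species prefix from here on. All 9 were in the deposited table of 1390 mature microRNAs, and 9 of 9 passed the filter on low counts that left 519 for testing. The libraries are microRNA sequencing of whole thymus from C57BL mice aged 5 weeks, 3 control and 3 irradiated. The irradiated group was given an X-ray dose of 6 Gy (800 cGy/min, 40 cm distance) and the control group none, with the thymus collected after 24 h. The mice were wild type, no sex or further treatment is given, and the labels name the molecule as polyA RNA. The protocol describes 3 mice for the control group; where a library is not 1 mouse, the p-values measure only the spread between libraries.

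MicroRNAs are cut from a hairpin whose 5′ arm (5p) and 3′ arm (3p) can each give a mature strand. In the miR-30 family the 5p strand is the one mainly loaded into Argonaute, and it finds its target messenger RNAs by pairing through its seed, the bases near its 5′ end. The family is abundant in epithelia, endothelium and heart, and is known for lowering connective tissue growth factor, the epithelial-mesenchymal transition factor Snai1, the Notch ligand Dll4 and the autophagy gene Becn1. Its genes lie as pairs on separate chromosomes, so strands that belong to 1 hairpin report on 1 locus.

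The 5 guide strands are shown first because they share a seed and differ by so little that their assignment matters for every value below. Capitals mark bases 2 to 8, the seed, counted from the 5′ end.
miR-30a-5p: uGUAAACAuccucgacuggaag
miR-30d-5p: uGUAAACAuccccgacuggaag
miR-30e-5p: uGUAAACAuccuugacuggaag
miR-30b-5p: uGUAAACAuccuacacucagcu
miR-30c-5p: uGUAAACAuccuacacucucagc
The seed is identical in all 5. MiR-30a-5p differs from miR-30d-5p by 1 base (U12C) and from miR-30e-5p by 1 base (C13U). The tool that assigned reads to these strands is not given in the sources used here, so reads exchanged among miR-30a-5p, miR-30d-5p and miR-30e-5p cannot be counted. This seed is carried by 6 of all 1390 microRNAs, and the other one is miR-384-5p.

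The 3p strands are shown because several of them belong to a single hairpin. Capitals again mark bases 2 to 8.
miR-30a-3p: cUUUCAGUcggauguuugcagc
miR-30e-3p: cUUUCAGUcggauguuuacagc
miR-30d-3p: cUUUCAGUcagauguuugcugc
miR-30c-2-3p: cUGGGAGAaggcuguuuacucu
miR-30c-1-3p: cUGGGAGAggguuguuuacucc
miR-30b-3p: cUGGGAUGuggauguuuacguc
The strands of miR-30a, miR-30d and miR-30e share one seed, the strands of miR-30c-1 and miR-30c-2 another. MiR-30a-3p and miR-30e-3p differ by 1 base (G18A), and miR-30c-2-3p and miR-30c-1-3p by 3 (A9G, C12U and U22C). MiR-30b-3p and miR-30c-1-3p are not among the 9 members and were added with miR-30f because they complete the family. Of these 12 strands 8 were matched to RefSeq (GRCm38.p6), each with a mature sequence identical to the deposited one.

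The hairpins were placed on GRCm38 by exact match to GENCODE M21. On chromosome 1, Mir30a (23272269 to 23272339) and Mir30c-2 (23291701 to 23291784) lie 19361 bases apart on the plus strand. Mir30c-2 overlaps an exon of the long noncoding RNA Gm27028, and Mir30a overlaps no annotated host. On chromosome 4, Mir30c-1 (120769534 to 120769622) and Mir30e (120772606 to 120772697) lie 2983 bases apart in an intron of Nfyc, which encodes a subunit of the CCAAT-binding factor NF-Y, on the same strand. On chromosome 15, Mir30b (68337415 to 68337510) and Mir30d (68341208 to 68341289) lie 3697 bases apart on the minus strand, Mir30b over an exon of Gm26621 and Mir30d over exons of Gm37296 and Gm20732. The build behind the deposited counts is not given in the sources used here.

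After irradiation the family split between the chromosome 1 pair and the other pairs. The strands that come from the chromosome 1 pair alone rose, those of the chromosome 4 and chromosome 15 pairs that passed the test fell, and miR-30a-5p replaced miR-30d-5p and miR-30e-5p as the most abundant guide strand. Of the 9 members, 3 were higher (miR-30a-5p, miR-30a-3p and miR-30c-2-3p), 4 were lower (miR-30b-5p, miR-30d-5p, miR-30d-3p and miR-30e-5p) and 2 did not pass (miR-30c-5p and miR-30e-3p). The calls of miR-30a-5p, miR-30b-5p and miR-30d-3p were lost in some settings, as given below. Among the 519 tested microRNAs 61.3% passed, 27.7% higher and 33.5% lower, so calls were common throughout the table and nothing is read from the number of members called. The median log2 fold change was −0.66 over the 9 members and 0.01 over the 519. Upper-quartile scaling moved the median of the 519 to 0.44, and under it and the other 2 scalings each of the 9 members kept its direction. Calls are from edgeR's quasi-likelihood test with Benjamini-Hochberg adjustment over all 519, at an adjusted p of 0.05. Levels are depth-scaled counts (CPM) corrected with trimmed-mean (TMM) factors. A positive log2 fold change means a higher level after irradiation, and ± SE is its standard error.

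**Figure D1:**
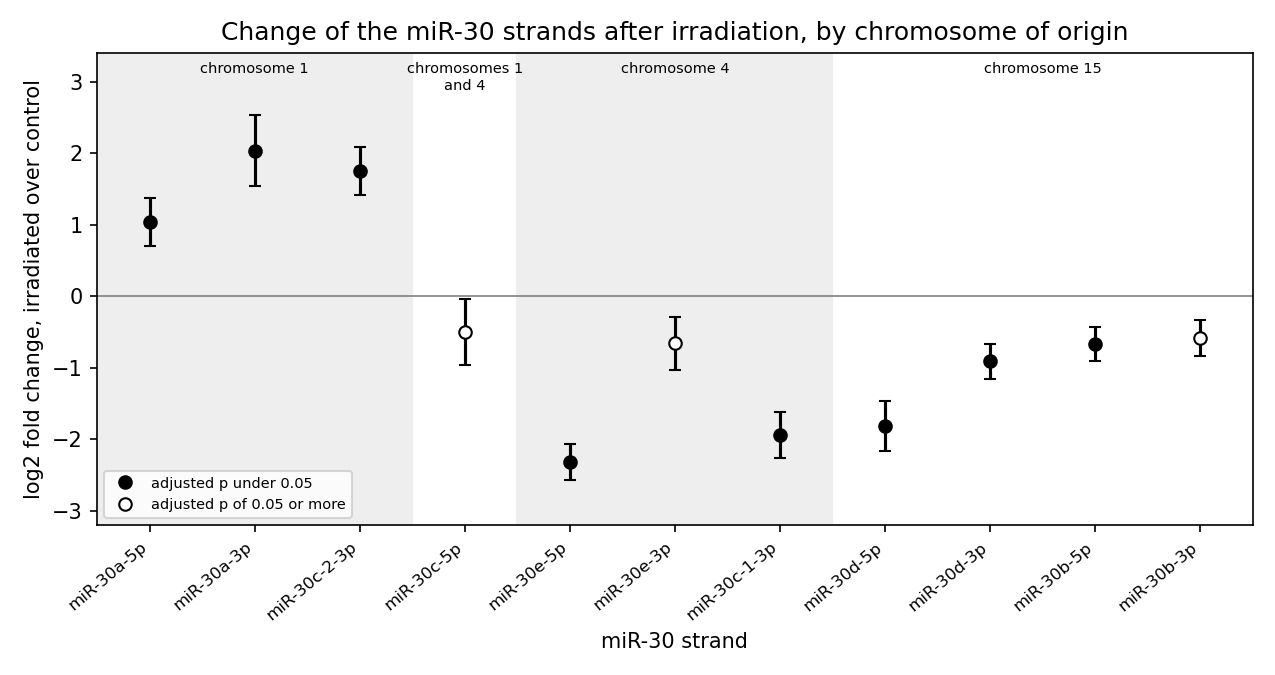
Log2 fold change of irradiated over control (y axis) with its SE as bars for 11 miR-30 strands (x axis), grouped by the chromosome that carries the hairpin; filled points had an edgeR adjusted p under 0.05. The 3 strands of chromosome 1 lie above 0 and the strands of chromosomes 4 and 15 lie below it.

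Library totals were 7730641 to 9287017 counts. Marker microRNAs of several cell types differed between the groups. The summed lymphoid and haematopoietic list (5 of 6 lower) was at 101335 to 168285 CPM in control and 6879 to 11386 CPM in irradiated libraries. The stromal and vascular list (4 of 7 higher, 0 lower) was at 90068 to 238922 and 204953 to 323968 CPM, so that the sums overlapped; most of each sum was miR-143-3p, which did not pass (edgeR adjusted p of 0.118). The epithelial list (4 of 7 higher, 0 lower) was at 10193 to 13175 and 20681 to 28826 CPM. In whole tissue, fewer cells of a type and less RNA per cell cannot be told apart. Irradiated replicates 2 and 3 stood apart from replicate 1 in the striated-muscle list (3 of 3 higher), at 602, 20116 and 13395 CPM after irradiation (replicates 1, 2 and 3) against 202 to 480 CPM in control. Most of each of these sums was miR-1a-3p. MiR-133a-3p had the same order (13.8, 419 and 146 CPM in irradiated replicates 1, 2 and 3). MiR-206-3p did not, at 61.2, 320 and 24.1 CPM, with replicate 3 below replicate 1. The erythroid list (2 of 3 higher) was at 604, 5028 and 1982 CPM in the same libraries, against 480 to 724 CPM in control. MiR-223-3p, the 1 myeloid marker, did not pass, at 21.3 to 41.7 CPM in control and 12.0 to 83.7 CPM after irradiation. None of the listed markers was at 0 in all libraries. The part of these lists in the changes of the miR-30 strands was not tested. Many results below are also given with irradiated replicate 1 alone. That setting leaves 1 irradiated library, so it holds no spread between irradiated libraries.

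MiR-30a-5p, the guide strand of the chromosome 1 locus, was 1 of the 10 most abundant microRNAs tested (rank 8 of 519 by mean level). It was at 13740, 9669 and 14965 CPM in control replicates 1 to 3 and at 15365, 28711 and 34806 CPM after irradiation (replicates 1 to 3). The groups did not overlap, as for 68.6% of all tested microRNAs, but irradiated replicate 1 lay just above the highest control. The rise was 2.06-fold (log2 1.04 ± 0.33 SE, edgeR adjusted p of 0.0209). The call was lost with a minimum mean of 10 CPM (adjusted p of 0.0558), without control replicate 2 (0.0863) and without irradiated replicate 3 (0.0793). With irradiated replicate 1 alone the log2 change fell to 0.47. The adjusted p-values of its other alternatives spanned 0.0018 to 0.0863.

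MiR-30a-3p, the other strand of the same hairpin, was at 91.4, 89.4 and 72.1 CPM in control against 107, 541 and 389 CPM after irradiation (replicates 1, 2 and 3). It rose 4.10-fold (log2 2.04 ± 0.50 SE, edgeR adjusted p of 0.0057), again with the smallest difference in irradiated replicate 1. With that library alone the log2 change fell to 0.54. The adjusted p-values of its other alternatives were 1.4e-07 to 0.0349. The 2 irradiated libraries with the high values are those high in the muscle list, the erythroid list and miR-223-3p. A link to any of these was not tested.

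MiR-30c-2-3p, from the neighbouring hairpin, was at 17.7, 16.1 and 17.2 CPM in control against 34.3, 80.1 and 56.5 CPM after irradiation (replicates 1, 2 and 3). All 3 irradiated values lay above all 3 controls, whose SD was 0.836 CPM. It rose 3.36-fold (log2 1.75 ± 0.34 SE, edgeR adjusted p of 0.0018). The call held in each alternative that kept more than 1 irradiated library, with adjusted p-values of 2.7e-06 to 0.0166. With irradiated replicate 1 alone the log2 value was 1.21.

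On chromosome 4, miR-30e-5p had the largest change of the 12 strands with all libraries in use. It was at 20180, 17094 and 24057 CPM in control against 4746, 3739 and 3809 CPM after irradiation (replicates 1 to 3). Every irradiated library was more than 3-fold below the lowest control. Its log2 change was −1.90 with irradiated replicate 1 alone, less than that of miR-30d-5p (−2.34). The level was 4.99-fold lower (log2 −2.32 ± 0.26 SE, edgeR adjusted p of 7.2e-05), and the call held in all 17 alternatives (adjusted p of 1.2e-10 to 0.0013). MiR-30c-1-3p, from the same Nfyc intron cluster, was at 27.1, 33.4 and 29.3 CPM in control against 5.74, 10.6 and 6.90 CPM in irradiated libraries, from 44 to 89 counts. It fell by 1.95 on the log2 scale (± 0.32 SE, edgeR adjusted p of 6.8e-04), and the groups did not overlap.

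MiR-30e-3p, from the hairpin of miR-30e-5p, did not pass. It was at 451, 648 and 569 CPM in control against 168, 484 and 404 CPM after irradiation (replicates 1, 2 and 3), so the groups overlapped. The log2 fold change was −0.66 ± 0.37 (SE, edgeR adjusted p of 0.143). With irradiated replicate 1 alone it was −1.53. Over its other alternatives the adjusted p was 0.0537 to 0.525.

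On chromosome 15 both miR-30d strands and miR-30b-5p were lower. MiR-30d-5p, the most abundant guide strand in control libraries 1 and 3, was at 25138, 15604 and 30231 CPM in control against 4043, 8284 and 7825 CPM in irradiated libraries. It was 3.52-fold lower (log2 −1.82 ± 0.35 SE, edgeR adjusted p of 0.0018); its 17 alternatives gave 4.5e-07 to 0.0095. MiR-30d-3p was at 56.9, 61.2 and 60.9 CPM in control against 30.7, 34.4 and 30.3 CPM in irradiated libraries, with little spread in either group. It fell by 0.91 on the log2 scale (± 0.25 SE, edgeR adjusted p of 0.0097), a call lost without control replicate 3 (0.0811) and with upper-quartile scaling (0.115), and its 17 alternatives spanned 0.0020 to 0.115.

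MiR-30b-5p was at 921, 761 and 872 CPM in control against 512, 614 and 482 CPM in irradiated libraries. The groups did not overlap, and it fell by 0.67 on the log2 scale (± 0.23 SE, edgeR adjusted p of 0.0305). This call rested on the settings: 12 of 17 alternatives lost it, among them every other scaling. Over all 17 the log2 values were −0.92 to −0.24 and the adjusted p-values 0.0063 to 0.404. Its call was lost without any 1 library other than irradiated replicate 1. MiR-30b-3p was at 34.0, 40.7 and 40.1 CPM in control against 25.6, 24.2 and 27.0 CPM in irradiated libraries (log2 −0.58 ± 0.25 SE, edgeR adjusted p of 0.0667).

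**Figure D2:**
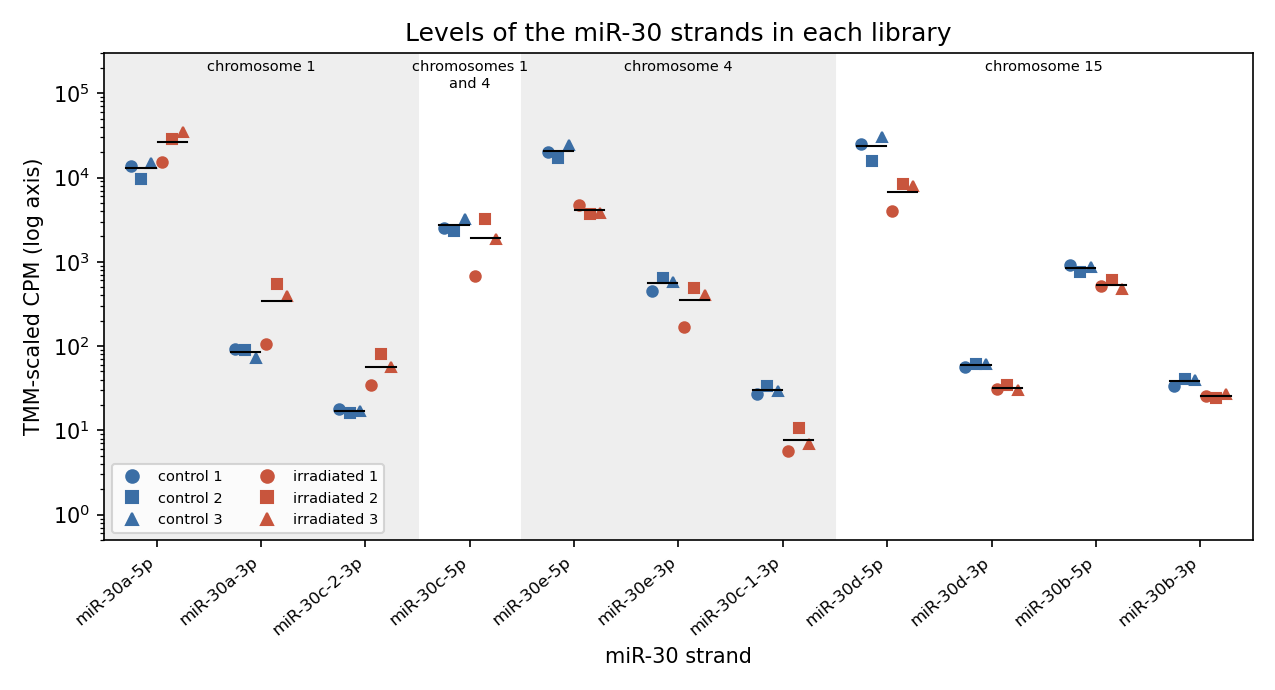
Level in TMM-scaled CPM (y axis, log scale) of 11 miR-30 strands (x axis) in each of the 6 libraries, with group means as bars. In miR-30a-3p, miR-30c-5p and miR-30e-3p the circle of irradiated replicate 1 lies well below irradiated replicates 2 and 3.

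MiR-30c-5p is the strand that cannot be assigned to a locus. The same 23 bases are cut from both hairpins below, in which capitals mark the mature strands, and among the mature strands only the 3p strands differ.
mir-30c-2, chromosome 1: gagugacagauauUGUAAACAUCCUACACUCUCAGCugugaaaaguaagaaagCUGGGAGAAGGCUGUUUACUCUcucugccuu
mir-30c-1, chromosome 4: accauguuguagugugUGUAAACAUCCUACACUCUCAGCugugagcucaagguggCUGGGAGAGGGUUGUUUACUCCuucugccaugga
MiR-30c-5p was at 2541, 2340 and 3224 CPM in control against 669, 3213 and 1844 CPM after irradiation (replicates 1, 2 and 3). Replicate 2 lay among the controls and replicate 1 far below them, and the strand did not pass (log2 −0.50 ± 0.47 SE, edgeR adjusted p of 0.368). With irradiated replicate 1 alone the log2 value was −1.81. Over its other alternatives the adjusted p was 0.0629 to 0.812.

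The 3p strands separated the loci where the shared 5p strand did not. MiR-30c-2-3p held 39.5%, 32.5% and 36.9% of the 3p counts of the miR-30c hairpins in control libraries. In irradiated libraries it held 85.7%, 88.3% and 89.1%. On the log2 scale the ratio of miR-30c-2-3p to miR-30c-1-3p was −0.81 ± 0.22 in control against 2.83 ± 0.24 after irradiation (SD, n = 3). The difference of 3.64, a 12.5-fold shift, had an exact two-sided permutation p of 0.1, below which no comparison of 3 with 3 libraries can go. With irradiated replicate 1 alone, the lowest of the irradiated libraries in the muscle and erythroid lists, the difference was 3.38. Ratios within a library do not depend on the scaling between libraries. Those between miR-30 strands, 10 in all, were chosen after their values were seen, and after adjustment over the 10 none is under 0.143.

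The miR-30a strands shifted against those of the other loci as well. MiR-30a-5p over miR-30e-5p was −0.55, −0.82 and −0.68 in control and 1.69, 2.94 and 3.19 in irradiated replicates 1, 2 and 3, a difference of 3.30 (exact permutation p of 0.1, adjusted 0.143) that was 2.38 with irradiated replicate 1 alone. MiR-30a-5p over miR-30d-5p went from −0.86 ± 0.16 to 1.96 ± 0.18 (SD, n = 3), with values of 1.93, 1.79 and 2.15 in irradiated libraries. This ratio varied little within either group, and irradiated replicate 1 was not apart. Among 3p strands, miR-30a-3p over miR-30e-3p differed by 2.53 between groups and miR-30a-3p over miR-30d-3p by 2.66. Neither pair overlapped between groups (exact permutation p of 0.1 each, adjusted 0.143). Keeping irradiated replicate 1 alone gave differences of 2.06 and 1.31, the second less than that with all libraries by over 1.5 times.

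Within loci the picture was mixed. The ratio of miR-30a-3p to miR-30c-2-3p on chromosome 1 was 2.30 ± 0.21 in control against 2.39 ± 0.65 after irradiation (SD, n = 3, exact permutation p of 1.0), with 1.64 in irradiated replicate 1, below all controls, and 2.76 and 2.78 in replicates 2 and 3, above them. On chromosome 4, miR-30e-3p over miR-30c-1-3p went from 4.20 ± 0.13 to 5.40 ± 0.51, and on chromosome 15 miR-30b-5p over miR-30d-5p went from −4.75 ± 0.38 to −3.59 ± 0.54 (SD, n = 3, exact permutation p of 0.1 each, adjusted 0.143). The groups did not overlap in either ratio, and the differences were 1.20 and 1.16. They were 0.65 and 1.77 with irradiated replicate 1 alone, so the size of both rests on which irradiated libraries are used. The 2 guide strands that fell most lie on different chromosomes, and in their ratio the groups overlapped. MiR-30d-5p (chromosome 15) over miR-30e-5p (chromosome 4) was 0.17 ± 0.26 in control (SD, n = 3). After irradiation it was −0.23, 1.15 and 1.04 in replicates 1, 2 and 3 (exact permutation p of 0.4). The difference was 0.48, and −0.40 with irradiated replicate 1 alone.

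**Figure D3:**
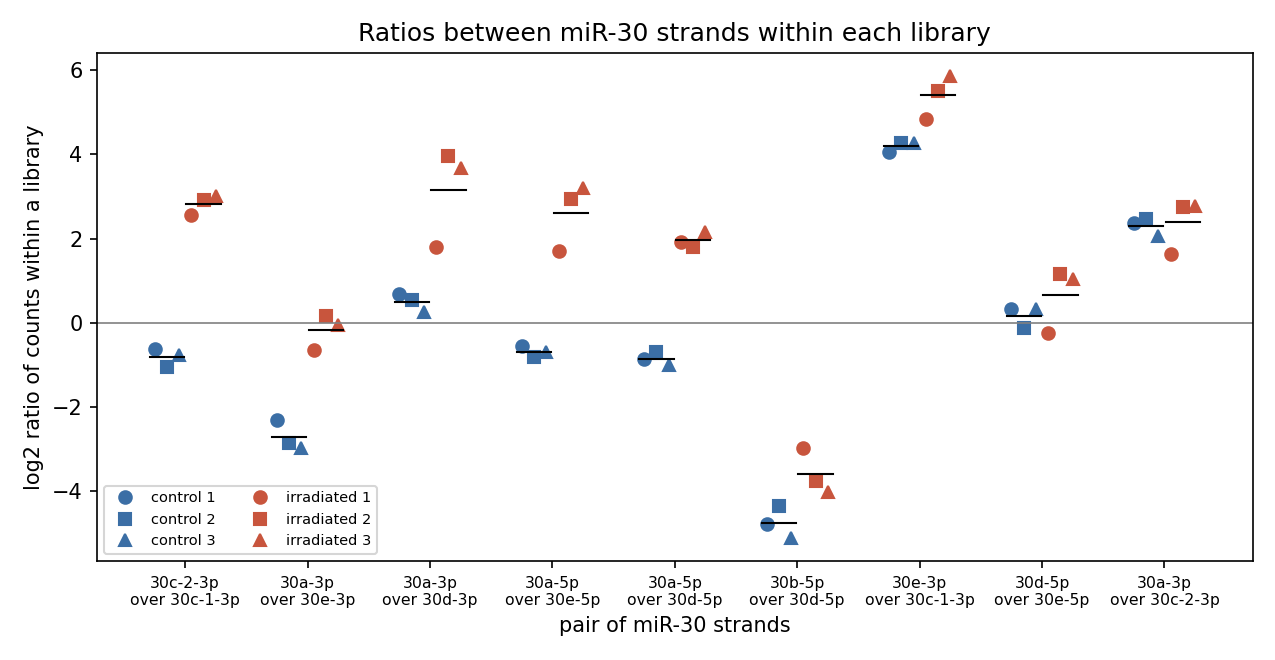
Log2 ratio of counts within a library (y axis) for 9 pairs of miR-30 strands (x axis), 1 point per library, with group means as bars. The 5 pairs at the left set a chromosome 1 strand over one of chromosome 4 or 15, and in each the irradiated points lie above the control points.

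The make-up of the guide strands differed from control in every irradiated library. The shares add up to the whole, so a strand can gain share because others fall. In irradiated replicate 1 miR-30a-5p was at 15365 CPM, just above the highest control (14965 CPM). MiR-30d-5p and miR-30e-5p were at 4043 and 4746 CPM in that library, below all controls. MiR-30a-5p held 22.0%, 21.3% and 20.4% of the summed counts of the 5 guide strands in control replicates 1 to 3. It held 60.6%, 64.4% and 71.4% in irradiated replicates 1 to 3. MiR-30d-5p went from 38.6% ± 3.73 to 16.9% ± 1.49 and miR-30e-5p from 34.2% ± 2.93 to 11.6% ± 6.14 (SD, n = 3). Each of these 3 had an exact permutation p of 0.1 (0.167 after adjustment over the 5 strands). MiR-30b-5p held 1.45% ± 0.243 and 1.46% ± 0.521, and miR-30c-5p 4.54% ± 0.554 and 4.54% ± 2.38, with overlapping groups (exact permutation p of 1.0 each). The differences from control were 39.4 percentage points for miR-30a-5p and −15.5 for miR-30e-5p with irradiated replicate 1 alone. The strands whose shares changed most have the same seed and differ at bases 12 and 13, as printed above.

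**Figure D4:**
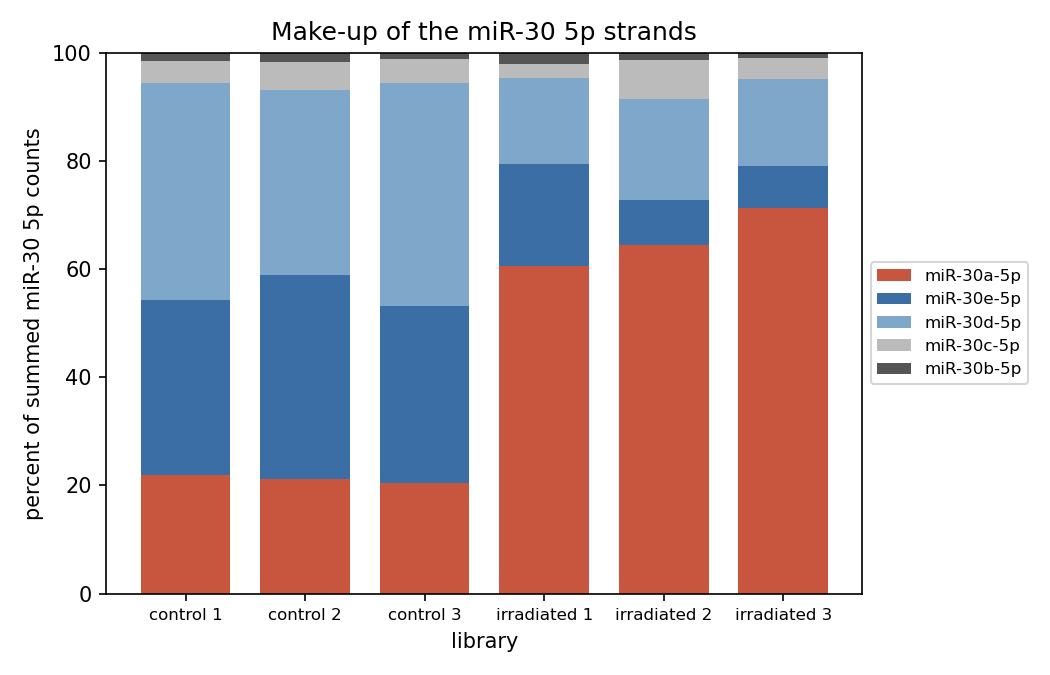
Percent of the summed counts of the 5 miR-30 guide strands (y axis) held by each strand in each of the 6 libraries (x axis). MiR-30a-5p fills 20.4% to 22.0% of the control bars and 60.6% to 71.4% of the irradiated bars.

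The guide strands together held less of the irradiated libraries. Their share of all counts was 5.14%, 6.34% and 7.26% in control and 2.24%, 4.37% and 4.95% in irradiated replicates 1 to 3. The means were 6.25% ± 1.06 and 3.85% ± 1.43 (SD, n = 3, exact permutation p of 0.1). The highest irradiated library lay just below the lowest control. The difference was −2.39 percentage points, and −4.00 with irradiated replicate 1 alone. With the most abundant miRNA left out of the total it was −2.13 points, with an exact permutation p of 0.2. In TMM-scaled CPM, which sets the libraries on another scale, the sum was 62521, 45467 and 73350 in control and 25335, 44561 and 48766 in irradiated libraries. On that scale irradiated replicate 3 lay above control replicate 2, so the groups overlapped.

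The miR-30c hairpins share their 5p strand, so they were pooled here and their ratio is over both loci. For the pool and each other hairpin, the share of the 5p strand was above that of the 3p strand in every library. It held 88.5% to 97.8% of the counts of mir-30e and 94.4% to 99.8% of those of mir-30a, mir-30b, mir-30d and the miR-30c hairpins. The log2 ratio of 5p over 3p was lower in irradiated than in control libraries by 1.14 for the miR-30c hairpins, where groups did not overlap (5.83 ± 0.28 and 4.69 ± 0.56, SD, n = 3, exact permutation p of 0.1). For mir-30e it was 5.48, 4.72 and 5.40 in control and 4.82, 2.95 and 3.24 in irradiated replicates 1, 2 and 3. The low values were in the libraries high in the muscle and erythroid lists. The difference for mir-30e, −1.53, and those for mir-30a (−0.77) and mir-30d (−0.92) had an exact permutation p of 0.2. That for mir-30b (−0.09) had an exact permutation p of 0.6. Keeping irradiated replicate 1 alone, they were −0.38 for mir-30e, −0.0623 for mir-30a, −1.54 for mir-30d and −1.77 for the miR-30c hairpins. After adjustment over the 5 the lowest p was 0.25.

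MiR-30f is annotated on the strand opposite Mir30e, and its first 10 bases equal bases 2 to 11 of the guide strands.
miR-30f: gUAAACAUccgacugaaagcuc
With the frame moved by 1 base its bases 2 to 8, in capitals, are not the miR-30 seed. It was at 241, 271 and 231 CPM in control against 131, 243 and 224 CPM in irradiated libraries (log2 −0.31 ± 0.29 SE, edgeR adjusted p of 0.37), a direction that turned with upper-quartile scaling (0.10). With irradiated replicate 1 alone the log2 value was −0.72. MiR-384-5p, a microRNA with the miR-30 seed whose gene is on chromosome X, had 6 counts in irradiated replicate 2 and 0 in the other 5 libraries. A count of 0 allows up to 3 counts, which is 0.278 to 0.428 CPM over the 5 libraries at 0 and covers counting error only.

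The microRNAs whose profile over the 6 libraries was nearest to that of the summed guide strands were sought among 149 others with a mean of at least 100 CPM. Likeness was the root-mean-square difference of log2 levels, each centred on its own mean. The nearest were miR-532-5p (0.288), miR-744-5p (0.307), miR-674-3p (0.307) and miR-320-3p (0.34). MiR-532-5p changed by −0.98 (edgeR adjusted p of 0.0078), miR-674-3p by −0.99 (0.0262) and miR-320-3p by −0.99 (0.0117), while miR-744-5p, at −0.49, did not pass (0.126). They were picked for likeness over these same 6 libraries, so their direction follows from the choice and is no separate result.

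The authors' deposited table gives log2 fold changes of the same sign for all 9 members. Its adjusted p for miR-30b-5p is 0.0827, above 0.05, and its value for miR-30e-5p is −2.24 with an adjusted p of 5.4e-11. These come from the same libraries.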

How the data were processed

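Per the file headers, the authors deposited whole-number counts of reads per mature miRNA and library, their own log2 fold change between the groups, and an adjusted p-value. No aligner, counting tool or build is given in the sources used here. The submitters' processing notes name DESeq2 1.10.1. Another 6 columns of counts match no label and stayed out. Library totals were 7730641 to 9287017 counts. Counts were filtered with filterByExpr, scaled with TMM factors and tested with edgeR 4.0.16 in R 4.3.3 (robust quasi-likelihood test, Benjamini-Hochberg over 519 miRNAs). The steps were tested on simulated data. Shares and log2 ratios within a library (0.5 counts added) were tested with two-sided exact permutation in scipy 1.17.1. Sequences came from the deposited table. The members, the marker lists, the tests and the rule for named miRNAs (members, strands of the same hairpins, miRNAs sharing a seed, and the 4 nearest in profile) were chosen with earlier results of these data known. Alternatives were other scalings, filters, DESeq2 1.42.0, limma-voom (limma 3.58.1), a replicate block and leaving out libraries. Leaving out irradiated replicates 2 and 3 together was chosen after seeing the data, and irradiated replicate 1 is then assumed to vary like the controls.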

Additional observations from a re-analysis of the deposited data

How the results depend on the processing

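Over all tested miRNAs the log2 fold change had a median of 0.01 with TMM, 0.12 with median-of-ratios, −0.13 with library totals and 0.44 with upper-quartile scaling. Of all called miRNAs 45.3% were higher with TMM, 59.7% with upper-quartile scaling and 38.4% with library totals. A mean of at least 10 CPM left 313 miRNAs to test and 210 calls against 318, and moved miR-30a-5p to 0.79 (edgeR adjusted p of 0.0558). Over single left-out libraries miR-30a-5p ranged from 0.82 to 1.31, miR-30b-5p from −0.75 to −0.54 and miR-30d-3p from −0.91 to −0.76. The number of members lower ranged from 2 to 4. MiR-30b-5p also lost its call with median-of-ratios (−0.56), library-total (−0.80) and upper-quartile scaling (−0.24), without the filter (−0.73), in DESeq2 (−0.56) and without the most abundant miRNA (−0.48). With upper-quartile scaling miR-30d-3p was at −0.48, miR-30f at 0.10, and 2 members were lower. MiR-30b-3p passed with a mean of at least 10 CPM (−0.84). Fewer miRNAs or libraries entered some of these settings; otherwise the cause was not tested.

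With irradiated replicate 1 alone the log2 changes were 0.47 for miR-30a-5p, 0.54 for miR-30a-3p and 1.21 for miR-30c-2-3p. They were −0.54 for miR-30b-5p, −1.81 for miR-30c-5p and −1.53 for miR-30e-3p. The guide strands' share of all counts then differed by −4.00 percentage points. In all libraries it differed by −5.67 points when those of the 10 most abundant miRNAs that lie outside the family were left out of the total. Leaving out only the most abundant miRNA gave −2.13 points (exact permutation p of 0.2). Both are shares of a smaller total, so their sizes cannot be set directly against −2.39. With irradiated replicate 1 alone the make-up of the guide strands differed by 39.4 points for miR-30a-5p and −15.5 for miR-30e-5p. It differed by 0.576 for miR-30b-5p and −1.89 for miR-30c-5p. The 5p over 3p log2 ratio differed by −0.0623 for mir-30a, −1.77 for the miR-30c hairpins, −1.54 for mir-30d and −0.38 for mir-30e. The ratios between strands differed by 3.38 (miR-30c-2-3p over miR-30c-1-3p), 2.06 (miR-30a-3p over miR-30e-3p), 1.31 (miR-30a-3p over miR-30d-3p), 2.38 (miR-30a-5p over miR-30e-5p), 0.65 (miR-30e-3p over miR-30c-1-3p) and 1.77 (miR-30b-5p over miR-30d-5p).

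Deviations of same-numbered libraries correlated at 0.10, −0.02 and 0.23 across miRNAs, and those of differently numbered ones at −0.25 to 0.11. With 3 libraries per group these values cannot show whether the replicate numbers pair the libraries. With the number as a replicate block 298 miRNAs were called, with 3 members higher and 4 lower.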
